A study of Mus musculus with 12 samples.

Results

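Beta-defensin genes of the caput epididymidis, the first segment of the duct in which sperm mature, were compared between aged mice lacking Gpx5 and wild-type mice. Members were all genes of the caput transcriptome table whose symbol begins with Defb and a number, which gave 42 of 22021 genes. Each had 1 transcript in the table, and the set includes the pseudogene Defb44-ps. The KO library was made from caput of Gpx5-/- mice aged 13 months, and the WT library from caput of WT mice of the same age, all on the C57BL/6 strain. Per the labels' protocols, tissue of 7 mice per genotype was pooled in place of replicates, after the caput had been punctured and left in buffer so that sperm could leave. The labels name no further allele or agent for either group, and how the Gpx5 deletion was made is not given in the sources used here. A further 10 small RNA libraries cover caput, corpus, cauda and testis at 13 months and caput at 2 months, each with 1 KO and 1 WT library. With 1 pooled library per group no value has a replicate error and no difference between KO and WT has a replicate check, so no p-value is given and every interval covers counting error only.

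Beta-defensins are small, positively charged secreted peptides held together by disulfide bonds between conserved cysteines. They are best known as antimicrobial peptides of epithelia that can also attract immune cells, and in mammals many of their genes are transcribed mainly in the epididymis. There the peptides are secreted into the duct and several coat sperm, where they have been tied to sperm motility, passage through cervical mucus and fertility. In mice, deletion of the run of genes between Defb1 and Defb13 leaves males infertile with abnormal sperm, and in rats combined loss of Defb23, Defb26 and Defb42 reduces sperm motility.

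The KO library rested on 13929327 reads and the WT library on 14348655. Gpx5, which encodes an epididymal secreted glutathione peroxidase, was at 918 RPKM (reads scaled to transcript length and to the mapped reads of the library) in KO and 8474 RPKM in WT, a difference of -3.21 on the log2(RPKM + 1) scale. Which part of the gene the remaining KO reads cover was not analysed here. The other 8 markers of caput principal cells, leaving out Gpx5, were present in both libraries and summed to 15073 RPKM in KO and 6470 RPKM in WT, a ratio of 2.33, with 4 called higher in KO and 0 lower by the 2-fold limit used below. The libraries differed more in other cell types: 15 of 15 spermatid and sperm markers were lower in KO, at a sum of 188 RPKM in KO and 12603 RPKM in WT with none at 0, and 7 of 7 Leydig cell markers were lower, at 11.9 RPKM in KO and 370 RPKM in WT. Over all 15000 genes tested below, 2.77% were higher and 22.1% lower in KO by the same limit. The part of these marker lists in the defensin values below was not tested. In such bulk tissue fewer cells of a type and less RNA per cell cannot be told apart.

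Beta-defensin transcripts were among the most abundant of the caput, and their levels ran from 0 to 6589 RPKM in KO and from 0 to 2506 RPKM in WT. The 42 members summed to 25994 RPKM in KO and 11133 RPKM in WT. They held an estimated 1.33% of the reads in KO (bounds 1.17% to 1.58%, from the rounding of the deposited values) and 0.562% in WT (0.496% to 0.663%). At least 1000 RPKM was reached by 9 members in KO and 3 in WT, and at least 100 RPKM by 18 in KO and 16 in WT. Among the 100 highest genes of each library were 10 members in KO and 9 in WT. At the other end 9 members stayed below 1 RPKM in both libraries, and 4 members in KO and 6 in WT were at 0. The order of the members hardly changed: 11 of the 12 highest were the same in both libraries, and Spearman's rho between the KO and WT levels of the 33 members with at least 1 RPKM in a library was 0.98, given as a description across genes that share their libraries.

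**Figure D1:**
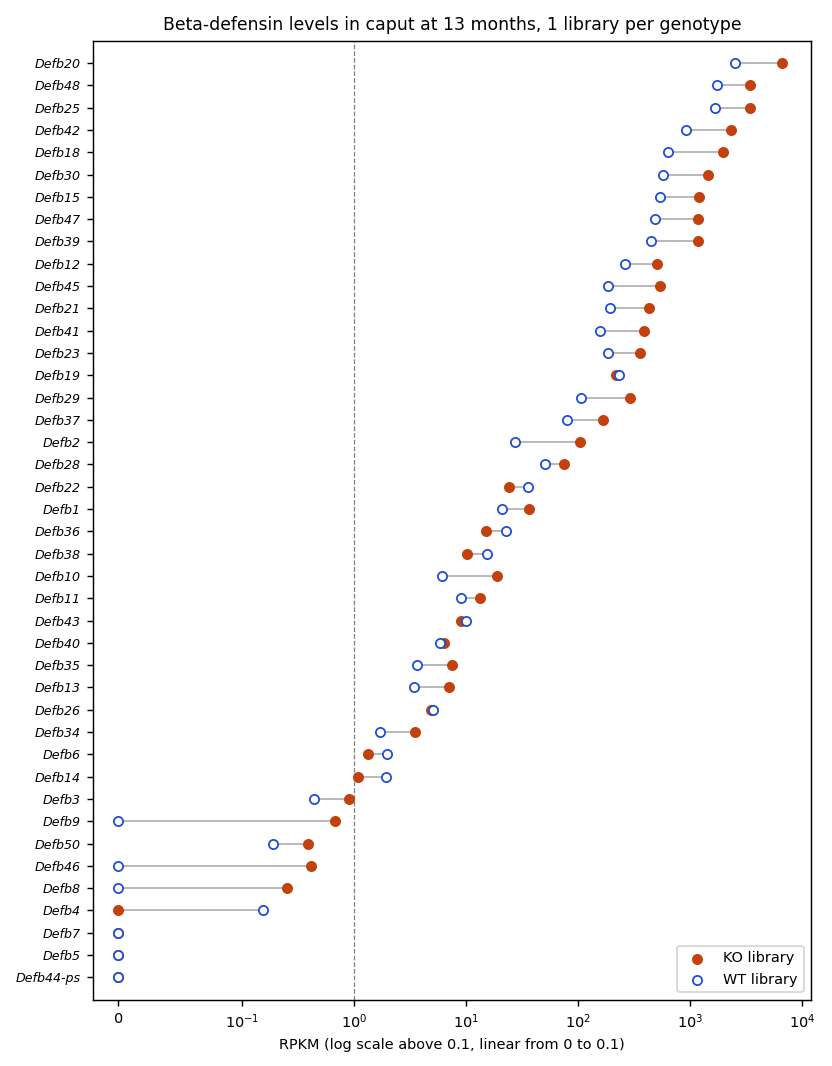
RPKM of each of the 42 beta-defensin genes in the KO library (filled) and the WT library (open), 1 library per genotype, on an axis that is logarithmic above 0.1 and linear below; the dashed line marks 1 RPKM. From Defb20 at 6589 RPKM in KO and 2506 RPKM in WT down to the 3 genes at 0 in both, the filled point lies to the right for most members above 100 RPKM, while Defb19, Defb22 and Defb36 have the open point to the right.

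Transcript was concentrated in few members. Defb20 was the highest in both libraries, with 6589 RPKM in KO and 2506 RPKM in WT, which placed it at rank 3 of all genes in KO and at rank 7 in WT. It held 25.3% of the summed RPKM of the family in KO and 22.5% in WT, and the 5 highest members together held 68.3% in KO and 67.0% in WT. Next came Defb25, with 3450 RPKM in KO and 1670 RPKM in WT, and Defb48, with 3443 RPKM in KO and 1727 RPKM in WT. The 2 genes were close to each other in each library and changed places between KO and WT. Defb42, one of the members whose combined loss lowers sperm motility in rats, had 2317 RPKM in KO and 923 RPKM in WT. Defb18 had 1961 RPKM in KO and 634 RPKM in WT. Defb30 had 1452 RPKM in KO and 576 RPKM in WT. The KO library was higher for every gene named in this paragraph.

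A group of 3 members followed at about the same level. Defb15 had 1193 RPKM in KO and 540 RPKM in WT. Defb39 had 1182 RPKM in KO and 447 RPKM in WT. Defb47 had 1171 RPKM in KO and 491 RPKM in WT. In KO the 3 genes were nearly level, and in WT Defb15 was the highest of them. Defb45 had 544 RPKM in KO and 184 RPKM in WT, Defb12 had 509 RPKM in KO and 263 RPKM in WT, and Defb21 had 430 RPKM in KO and 193 RPKM in WT. Defb41, whose locus has been used to drive Cre recombinase in principal cells of the mouse caput, had 386 RPKM in KO and 156 RPKM in WT.

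The comparison of KO with WT asked which members differed at 13 months. Genes reaching 1 RPKM in KO or WT were tested, and a difference of at least 1 on the log2(RPKM + 1) scale, about 2-fold, was called. Of the 33 tested members 15 were higher in KO and 0 were lower. Over all 15000 tested genes 2.77% were called higher and 22.1% lower, against 45.5% and none of the tested members. The median difference was 0.95 (quartiles 0.09 and 1.33) over the tested members and 0.05 (quartiles -0.81 and 0.46) over all tested genes. KO was above WT in 25 members and below it in 8. The summed RPKM of the family was 2.33-fold higher in KO, the same ratio as for the summed 8 principal cell markers. By gene, the differences of those markers ran from 0.29 to 1.57, with a median of 1.01. Their sum rests largely on Adam7, at 6373 RPKM in KO and 2383 RPKM in WT. Most of the 8 markers are also in the caput secretory list used below. The 9 members below 1 RPKM in both libraries are outside these counts.

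**Figure D2:**
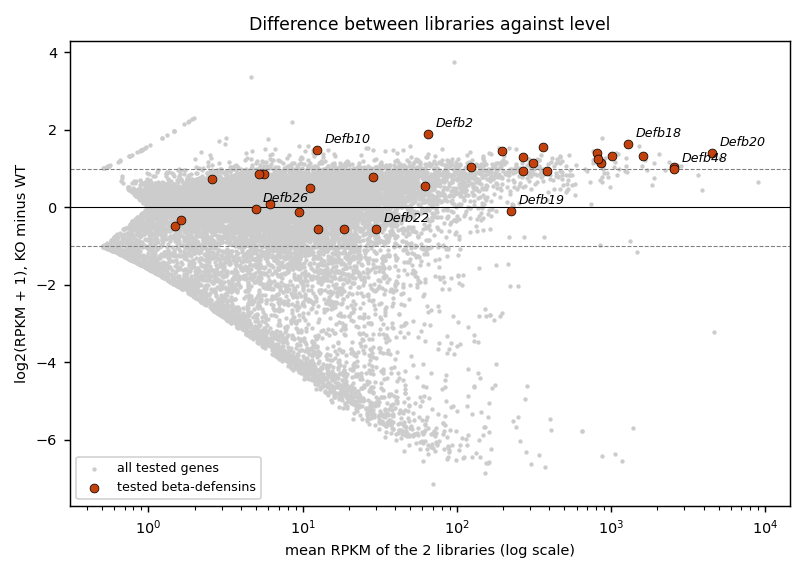
Difference of log2(RPKM + 1), KO minus WT, against the mean RPKM of the 2 libraries on a logarithmic axis, for 15000 tested genes (grey) and the 33 tested beta-defensins (coloured, some named); dashed lines mark differences of 1 and -1. Members above 100 RPKM lie near or above the upper line except Defb19, and members of lower level scatter between -0.56 and 1.90.

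The count depends on the scaling of the libraries. Genes of the caput secretory list, which are other products of caput epithelium, had a median difference of 1.07. When all values were centred on that median, 0 members were higher and 8 lower, with 0.0533% of all tested genes higher and 51.1% lower, and the summed family was 1.11-fold higher in KO. Relative to other caput secretory genes the family as a whole was thus near level, while its members kept their differences from each other.

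The difference went with the level of the gene. Of 17 tested members with a mean of at least 100 RPKM, 13 were higher in KO, with a median difference of 1.25 and a range of -0.09 to 1.63. Of 16 tested members below that level 2 were higher (12.5%), namely Defb2 and Defb10, with a median of 0.30 and a range of -0.56 to 1.90. Genes of all kinds at 100 RPKM or more were also shifted: 24.4% of 521 were higher in KO, with a median difference of 0.77, and of 14479 genes below that level 1.99% were higher, with a median of 0.03. Defb37 was in the upper group only through its KO level, since it was under 100 RPKM in WT.

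Defb2, described in mice as an airway member that inflammation can induce, had the largest difference. It was at 103 RPKM in KO and 27.1 RPKM in WT, a ratio of 3.82 (counting interval 3.11 to 4.72) and a difference of 1.90. Defb18 followed with a difference of 1.63 and a ratio of 3.09 (2.95 to 3.24). Defb45 had a difference of 1.56 and a ratio of 2.95 (2.75 to 3.18). Defb10, at 18.9 RPKM in KO and 6.10 RPKM in WT, had a difference of 1.48 and a ratio of 3.09, but its 78 reads in KO and 26 in WT left an interval of 1.96 to 5.02. The intervals of Defb2 and Defb18 overlap in part, and whether their order is beyond counting error was not tested. The most abundant member, Defb20, had a difference of 1.39 with a ratio of 2.63 (2.59 to 2.67), and Defb29, at 289 RPKM in KO and 105 RPKM in WT, had 1.45.

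The other called members lay closer together. Differences were 1.40 for Defb39, 1.33 for both Defb30 and Defb42, 1.30 for Defb41, 1.25 for Defb47, 1.15 for Defb21 and 1.14 for Defb15. Just past the limit stood Defb25 with 1.05 and Defb37 with 1.04, the second at 166 RPKM in KO and 80.2 RPKM in WT. Just short of it stood Defb48 with 0.99, Defb12 with 0.95 and Defb23 with 0.94, the last at 354 RPKM in KO and 184 RPKM in WT. The ratio of Defb48 was 1.99 (1.94 to 2.05) and that of Defb25 was 2.07 (2.00 to 2.13), so the limit parts genes whose intervals overlap. Ratios of the 15 called members ran from 2.07 to 3.82. The counting interval lay above 1 for every one of them, which follows largely from calling them on the same reads. The interval also lay above 1 for 6 members that were not called, below 1 for 2 and across 1 for the remaining 10. Shares of all tested genes by interval are not given here, so these counts are a description of the members only.

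Several members did not share the higher KO level. Defb19, also called testis defensin-like because it was described in the developing testis, was at 218 RPKM in KO and 232 RPKM in WT, a ratio of 0.939 (0.864 to 1.02). It was the only tested member with a mean of at least 100 RPKM whose KO level was not above WT. Defb22, the mouse counterpart of the DEFB126 protein that coats macaque and human sperm, was at 24.01 RPKM in KO and 35.9 RPKM in WT, a difference of -0.56 and a ratio of 0.669 (0.561 to 0.801). Defb36 was at 14.9 RPKM in KO and 22.5 RPKM in WT, also a difference of -0.56, with a ratio of 0.662 (0.507 to 0.860). For these 2 genes the interval excluded 1, yet neither reached the 2-fold limit. Defb38 was at 10.1 RPKM in KO and 15.2 RPKM in WT, a difference of -0.55, and Defb43 was at 8.97 RPKM in KO and 9.91 RPKM in WT, a difference of -0.13. Their intervals, 0.393 to 1.099 for Defb38 and 0.609 to 1.34 for Defb43, both include 1.

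Members other than Defb2 that are best known from other epithelia are given next. Defb1, the constitutive epithelial beta-defensin and counterpart of human beta-defensin-1, was at 36.2 RPKM in KO and 20.7 RPKM in WT, with a difference of 0.78 and a ratio of 1.75 (1.502 to 2.04). Defb14, the mouse counterpart of human beta-defensin-3, was at 1.09 RPKM in KO and 1.90 RPKM in WT on 5 reads in KO and 9 in WT. Defb6 was at 1.33 RPKM in KO and 1.94 RPKM in WT on 6 reads in KO and 9 in WT. Both stood just above the limit of 1 RPKM, and neither difference is resolvable from so few reads. Defb3, which infection can induce in airways, was just below the limit at 0.892 RPKM in KO and 0.433 RPKM in WT on 4 reads in KO and 2 in WT. Defb9 was at 0.667 RPKM in KO on 3 reads and at 0 in WT, and Defb4, another inducible member, was at 0 in KO and at 0.152 RPKM in WT on 1 read. Defb5, Defb7 and the pseudogene Defb44-ps had no read in either library. Each count of 0 allows up to 3 reads, so these genes were not detectable at this depth.

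Some values are uncertain for further reasons. Defb3, Defb5, Defb6, Defb7, Defb8 and Defb46 each have a promoter at least 75% identical to that of another of these genes. Small RNA fragments of Defb2, Defb9, Defb10 and Defb11 share stretches of sequence. Reads may have been split among such genes in counting, but transcript sequences were not compared and this was not tested. Defb41, Defb36, Defb37, Defb14 and Defb13 overlap another annotated gene, and the Nextera libraries do not record strand. Recovered transcript lengths ran from 174 bases for Defb46 to 1030 bases for Defb30, in libraries of cDNA sheared to 200 to 400 bp, and how the fragment size affects the level of so short a transcript was not tested.

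The members were also set in their order along the chromosomes, taken from RefSeq (GRCm38.p6), since neighbours may share a pattern. They fall into 5 clusters on chromosomes 1, 2, 8 and 14, with chromosome 8 holding 2 of them, parted at wide gaps that were set after the positions were seen. The chromosome 2 cluster of 11 genes, from Defb23 to Defb25, carried 46.1% of the summed RPKM in KO and 46.6% in WT. Of its genes 5 of 11 were higher in KO, where 2.77% of all tested genes were called higher and 22.1% lower, while Defb22, Defb26, Defb19 and Defb36 stood between or beside them with differences of -0.56, -0.04, -0.09 and -0.56. The 5 genes of chromosome 14, from Defb48 to Defb42, carried 32.3% in KO and 33.5% in WT, and 3 of 5 were higher. Only 2 of the 3 genes on chromosome 1, Defb18 and Defb41, were tested, and both were higher.

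The clusters differed more in summed level than in summed ratio, while their medians by gene were further apart. On chromosome 8 the cluster from Defb40 to Defb7 had 2 of 8 tested members higher and 3 with KO below WT, with transcript at its Defb40 side and at most 9 reads per gene and library over the run from Defb4 to Defb7. The second chromosome 8 cluster runs from Defb1 to Defb13, and its loss makes male mice infertile. It had 3 of 7 tested members higher, and all 7 had KO above WT. For Defb11 (0.988 to 2.22) and Defb13 (0.957 to 4.71) the counting interval includes 1. Over all tested genes 2.77% were called higher and 22.1% lower. The summed RPKM of this second cluster came mostly from Defb15. Summed RPKM in KO over WT was 2.97 for chromosome 1, 2.31 for chromosome 2, 2.30 and 2.26 for the clusters of chromosome 8 and 2.25 for chromosome 14. These sums are set mostly by the abundant genes. Median differences of the tested members were 1.46 for chromosome 1, 0.94 for chromosome 2 and 1.25 for chromosome 14. On chromosome 8 they were 0.42 for the first cluster, with a range of -0.55 to 1.40, and 0.87 for the second.

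**Figure D3:**
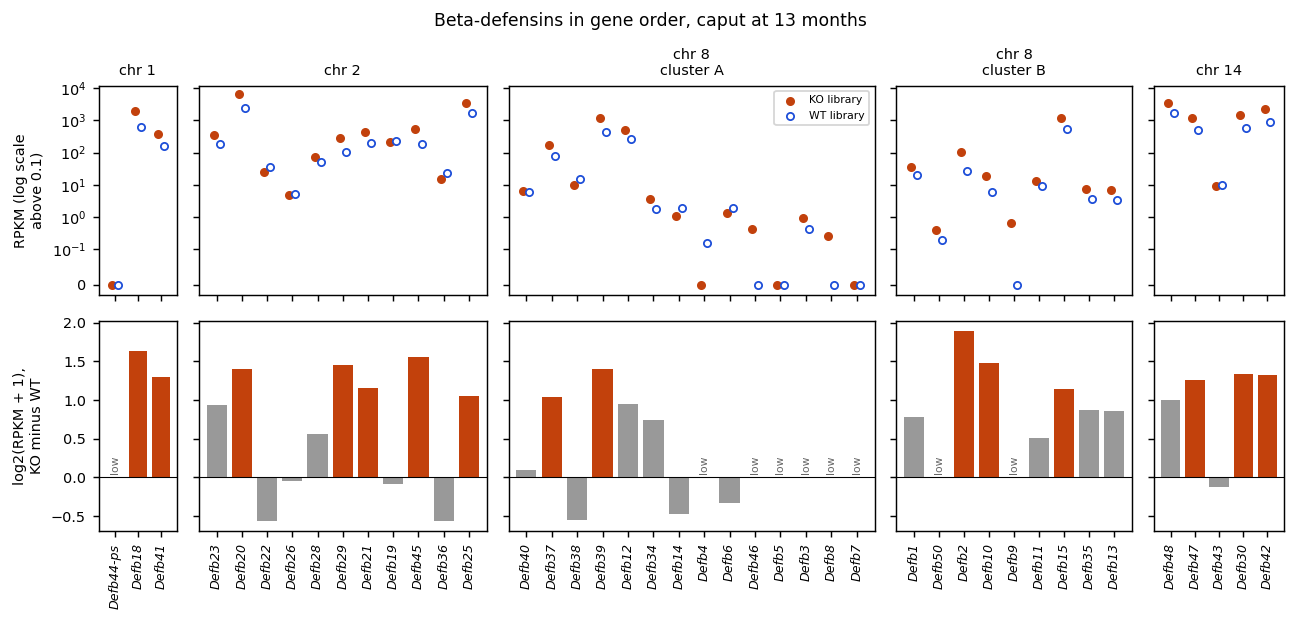
Beta-defensins in chromosomal order within 5 clusters: RPKM in the KO (filled) and WT (open) library on an axis logarithmic above 0.1 (top), and the difference of log2(RPKM + 1), KO minus WT (bottom), with called genes coloured and genes below 1 RPKM in both libraries marked low. Bars above and below 0 stand side by side within the chromosome 2 cluster, and the tested genes of chromosome 8 cluster B are all above 0.

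Other genes of host defence and of the pathway were taken from fixed lists. Of 18 tested genes for other antimicrobial and related epididymal secreted proteins 10 were higher in KO and 1 lower, with a median of 1.05; over all tested genes the shares were 2.77% higher and 22.1% lower. Spag11b, an epididymal gene with beta-defensin-like products, was at 7241 RPKM in KO and 3007 RPKM in WT, above any Defb gene in both libraries. Spag11a was at 768 RPKM in KO and 299 RPKM in WT. Lcn2, a lipocalin that binds bacterial siderophores, was at 3889 RPKM in KO and 1846 RPKM in WT, and Wfdc10, of the whey acidic protein family, at 1613 RPKM in KO and 623 RPKM in WT. The gene that was lower, Wfdc15a, was listed at 0 in KO, against 42.8 RPKM in WT; it was named after its values were seen. The median of all tested Defb genes, 0.95, was thus close to that of these other secreted products. In the caput secretory list, with a median of 1.07, 17 of 28 tested genes were higher and 0 lower. Both lists hold genes of all levels, and the abundant Defb genes alone were not set against list genes of like level.

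Of 18 tested receptors, regulators and processing enzymes of beta-defensins 1 was higher in KO and 2 were lower, with a median of 0.49. Counts so small are close to what the 2.77% higher and 22.1% lower of all tested genes would give and are no result about this list. Ros1, a receptor kinase needed for differentiation of the initial segment of the epididymis, was at 95.1 RPKM in KO and 46.6 RPKM in WT. Etv5, a transcription factor of the ETS family active in the same segment, was at 54.8 RPKM in KO and 31.8 RPKM in WT. Stat3, a signalling factor downstream of cytokine receptors, was at 25.5 RPKM in KO and 18.1 RPKM in WT. Lower in KO were Pcsk4, a proprotein convertase of germ cells, at 0.457 RPKM in KO and 14.6 RPKM in WT, and Ccr6, the chemokine receptor that beta-defensins can bind, at 0.0588 RPKM in KO and 1.77 RPKM in WT; both were named after their values were seen. In the same libraries the basal cell markers had a median of 0.86 with 0 of 5 called, and the smooth muscle and stroma markers 0.53 with 0 of 5 called. Erythroid markers had a median of 1.01 with 2 of 3 higher in KO, Hbb-b1 at 89.7 RPKM in KO and 35.8 RPKM in WT and Hba-a1 at 24.7 RPKM in KO and 11.7 RPKM in WT. Medians were 0.78 for clear cells, 0.29 for leukocytes, 0.14 for endothelium and 0.57 for cauda and vas deferens, each with 0 called, and -1.51 for Sertoli cells with 2 of 3 lower.

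**Figure D4:**
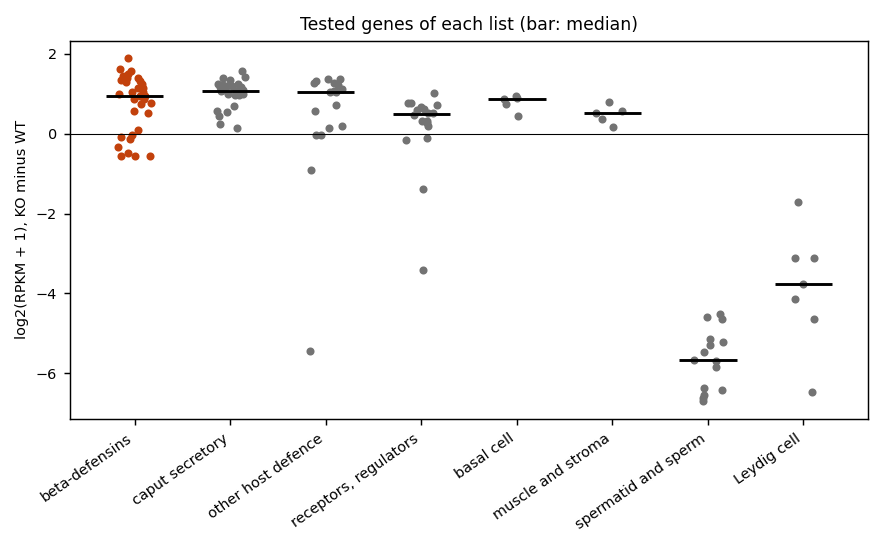
Difference of log2(RPKM + 1), KO minus WT, of each tested gene (points) in the beta-defensin family and 7 lists, with the median of each list as a bar. The beta-defensins (median 0.95), the caput secretory list (1.07) and the other host defence genes (1.05) lie together, the receptors and regulators lie lower (0.49), and spermatid (-5.67) and Leydig cell (-3.77) markers lie far below 0.

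Small RNA libraries gave a second readout, since fragments of 18 to 40 nt that the authors matched to the RefSeq transcripts of members can be counted. In all 645 reads came from 35 members, and 96.4% of them had the orientation of the transcript. They were spread over many sequences, with at most 4 reads of any 1 sequence in a library. Each sequence shown is the most abundant among fragments in transcript orientation, without mismatch and within a length limit, with ties taken alphabetically. They are from the members with the most reads in caput (Defb20, Defb42) and from 2 members seen mainly in cauda (Defb28, Defb43).
Defb20: gttttagcaacgtagaaggct
Defb42: ccacagcagaatctggcc
Defb28: gagatgcggagagagaac
Defb43: aatcaggactgttcaaagcaccgccact
The Defb20 fragment was read 1 time in KO caput and 4 times in WT caput, and the Defb42 fragment 0 times in KO and 3 times in WT. The Defb28 fragment was read 2 times in KO cauda and 0 times in WT cauda, and the Defb43 fragment 1 time in KO and 2 times in WT.

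In caput at 13 months the members had 180 reads in KO and 224 in WT. As RPM, which here is scaled to the classified reads of a library, this was 9.80 in KO (8.42 to 11.3) and 16.2 in WT (14.2 to 18.5), a ratio of 0.605 (0.494 to 0.739), below 1 where the transcripts were 2.33-fold higher. The direction depends on the base, because reads of the mRNA class as a whole numbered 154987 in KO and 476638 in WT. Scaled in the same way to mRNA-class reads, the members stood at 1161 in KO and 470 in WT, a ratio of 2.47. Defb20 alone gave 41.7% of the member reads in KO and 58.5% in WT. It was at 4.08 RPM in KO and 9.48 RPM in WT, a ratio of 0.431 (0.320 to 0.577), and without it the ratio was 0.850 (0.637 to 1.14). Without Defb20 the value was thus still below 1, with an interval that includes 1. Defb42 had 21 reads in KO and 18 in WT, which in the deeper KO library is 1.14 RPM against 1.30 RPM in WT. Defb30 had 17 reads in each, at 0.926 RPM in KO and 1.23 RPM in WT. Defb23 had 17 reads in KO and 8 in WT, at 0.926 RPM in KO and 0.579 RPM in WT.

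Fragments differed between segments of the duct. Corpus had 18 member reads in KO and 60 in WT, at 2.15 RPM in KO and 2.07 RPM in WT, and cauda had 58 in KO and 90 in WT, at 5.06 RPM in KO and 5.48 RPM in WT. Testis had 6 reads in KO and 4 in WT, and caput at 2 months had 4 in KO and 1 in WT, in shallower libraries with few mRNA-class reads and counts that had partly been turned into dates. In cauda the leading member was Defb28, with 32 reads in KO and 55 in WT (2.79 RPM in KO and 3.35 RPM in WT), against 5 reads in KO caput and 3 in WT caput. Over both genotypes its level in cauda was 12.6-fold that in caput (6.10 to 29.99). Defb20 went the other way, with 206 reads in caput and 1 in cauda over both genotypes. Across members, caput fragments followed the caput RPKM (Spearman's rho 0.83) and cauda fragments did not (rho 0.04), a description over 42 genes that share their libraries. Only 14 members had a fragment in cauda at 13 months, against 24 in caput. Most members are thus tied at 0 in the cauda value, and several others rest on few reads.

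A second set seen in cauda came from chromosome 8 cluster B. Defb2 had 6 reads in KO cauda and 9 in WT cauda, at 0.524 RPM in KO and 0.548 RPM in WT. Defb11 had 6 in each, at 0.524 RPM in KO and 0.365 RPM in WT. Defb9 had 3 in KO and 6 in WT (0.262 and 0.365 RPM), and Defb10 had 2 in KO and 5 in WT (0.175 and 0.304 RPM). Together the 4 genes had 17 reads in KO cauda and 26 in WT cauda, against 2 in KO caput and 1 in WT caput. Their fragments share stretches of at least 18 nt, so the reads cannot be assigned firmly to 1 gene. The pair shown makes this visible; capitals mark the 33 nt that both fragments hold, and Defb2 and Defb11 differ only in the ends.
Defb2: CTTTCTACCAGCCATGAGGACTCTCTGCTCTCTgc
Defb11: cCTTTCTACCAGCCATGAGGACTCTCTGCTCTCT
The first was read 3 times in KO cauda and 0 times in WT cauda, the second 0 times in KO and 4 times in WT. A matched set of transcript values for cauda was not used here.

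**Figure D5:**
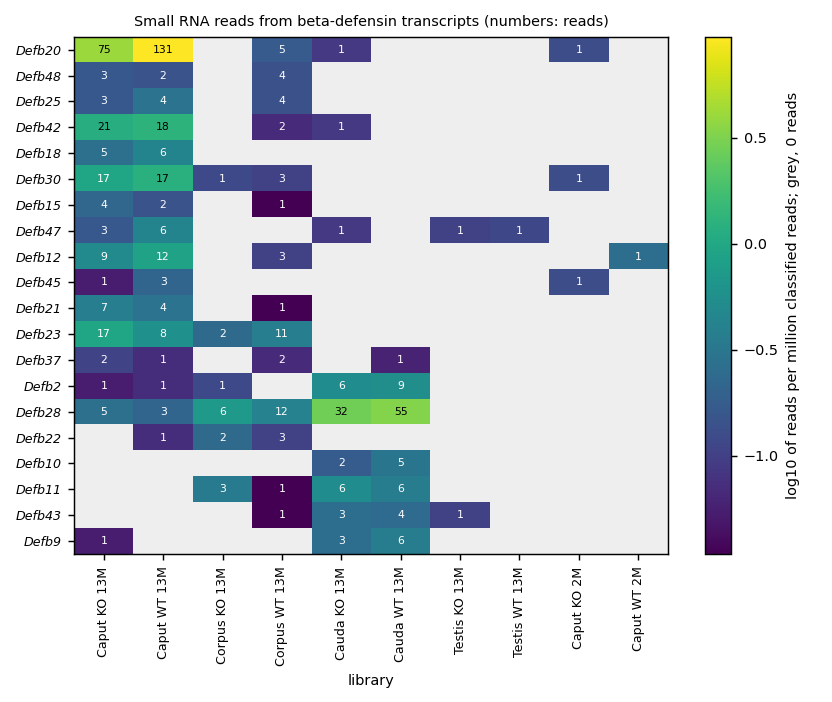
Small RNA reads matched to beta-defensin transcripts in 10 libraries, for members with at least 5 reads in all, ordered by caput RPKM; colour is the log10 of RPM of classified reads, grey is 0 reads, and the number is the read count. Defb20 leads in both 13-month caput libraries (75 reads in KO and 131 in WT), and Defb28 leads in both cauda libraries (32 in KO and 55 in WT).

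Promoters were searched for motifs that members share. RefSeq promoters (GRCm38.p6; 250 bases before to 50 after the start) matched 28 of the 42 members. On either strand, the steroid receptor half-site AGAACA was present in 17 of 28 promoters (60.7%), against 19.0% of all 32851 promoters and 25.2% of the 20290 whose GC content lay in the range of the members. The promoters of members had a median GC content of 48.2%, against 52.7% for all. No promoter of the 28 held the half-site and its reverse complement facing each other with 3 bases between, which 0.00913% of all promoters hold. The ETS-family motif AGGAAG was in 10 of 28 (35.7%), close to its share of 35.4% in all promoters, and the kappa B motif was in 0 of 28 (0.155% of all). AGAACA and AGGAAG may overlap by up to 2 bases. Members are not independent, since 11 of 378 promoter pairs were identical at 75% of positions or more, among them Defb3 and Defb8 at 89%; of the 8 members in those pairs 6 held AGAACA.

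The promoters printed are those of the most abundant member on chromosome 2 (Defb20) and on chromosome 14 (Defb48), and of Defb36, whose level was lower in KO, and they run from 250 bases before to 30 after the start. Capitals mark AGAACA or its reverse complement TGTTCT.
Defb20, chr2:152476813-152477092, plus strand: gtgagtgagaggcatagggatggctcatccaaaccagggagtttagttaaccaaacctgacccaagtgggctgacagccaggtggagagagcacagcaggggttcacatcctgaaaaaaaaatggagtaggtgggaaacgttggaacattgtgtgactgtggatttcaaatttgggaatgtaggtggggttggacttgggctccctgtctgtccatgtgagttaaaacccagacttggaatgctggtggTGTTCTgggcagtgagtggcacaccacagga
Defb48, chr14:62984481-62984760, minus strand: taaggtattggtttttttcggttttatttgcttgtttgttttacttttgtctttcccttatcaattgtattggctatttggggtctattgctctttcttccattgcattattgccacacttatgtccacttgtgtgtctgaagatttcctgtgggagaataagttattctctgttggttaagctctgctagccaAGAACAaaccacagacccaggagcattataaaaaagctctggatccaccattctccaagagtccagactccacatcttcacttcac
Defb36, chr2:152604077-152604356, plus strand: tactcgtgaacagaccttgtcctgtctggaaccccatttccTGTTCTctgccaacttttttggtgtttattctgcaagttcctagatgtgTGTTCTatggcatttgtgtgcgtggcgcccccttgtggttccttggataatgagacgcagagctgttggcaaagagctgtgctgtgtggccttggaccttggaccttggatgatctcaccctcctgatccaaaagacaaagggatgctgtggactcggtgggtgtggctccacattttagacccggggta
The half-site occurs 1 time each in the promoters of Defb20 and Defb48 and 2 times in that of Defb36, so it was present in members that differed in either direction. Of the tested members 13 with AGAACA had a median difference of 1.14 with 7 higher in KO, and 9 without it had a median of 0.86 with 4 higher. The groups overlap over nearly their whole range, -0.56 to 1.48 with the motif and -0.56 to 1.56 without. A match is a description of letters in this window and says nothing of binding.

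The authors' own comparison of the 2 libraries was read beside these values. In the authors' deposited table, GFOLD values, which are log2 fold changes of KO over WT shrunk towards 0 for low counts, were at least 1 for 14 members, against 1.07% of all 28344 transcripts (15.1% were at -1 or below). They lay between 0 and 1 for 6 members, at 0 for 20 and below 0 for 2. By the authors' deposited table the highest values were 1.66 for Defb2, 1.62 for Defb18 and 1.51 for Defb45, the same 3 genes that led by the difference of log2(RPKM + 1). The 2 negative values in the authors' deposited table were -0.21 for Defb22 and -0.09 for Defb36. Defb10, called above, had a GFOLD value of 0.95 and Defb37 one of 0.92 in the authors' deposited table, both under 1, while Defb48 was at 1.03 there.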

How the data were processed

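The authors' transcriptome table gives RPKM for each RefSeq transcript, as written by GFOLD V1.1.3 from 1 library per genotype, per the file headers. The same deposited table gives log2 fold changes and GFOLD values, and a false discovery p-value column deposited with them was not used. The submitters' processing notes name TopHat2, Bowtie 0.12.7 and mm9 but no step for them. Small RNA files list a read count for every distinct sequence, which the authors matched to database entries with up to 2 mismatches, per the file headers. Classified reads ranged from 3855476 to 29049669 per small RNA library, so 3 reads, the floor for a count of 0, correspond to 0.103 to 0.778 RPM.

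From these files the transcript with the highest mean RPKM was kept per gene, differences were taken as log2(RPKM + 1), which understates the change of low genes, and genes reaching 1 RPKM in KO or WT were tested at a difference of 1. Reads were recovered from the RPKM and the deposited log2 fold change; of 2629 transcripts with up to 20 reads in KO and in WT, 100% were whole to within 0.1 reads. For the most abundant members the recovered counts are uncertain, by 28.2% for Defb20 and 16.9% for Defb48, and intervals use the lowest count. Ratios have exact conditional binomial intervals at 95%, and RPM values have exact Poisson intervals at 95%. Reads carry no molecular identifiers, so both cover counting error only. The bounds on shares of library reads come from the rounding of the deposited values and are not counting intervals. No count test was run with 1 library per group. Scripts used Python 3.11.15, pandas 2.3.3 and scipy 1.17.1 and were tested on simulated data.

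Members and lists were chosen with earlier results of these data known. Any member may be named; full values went to the 12 highest, the 4 with the largest and the 4 with the smallest difference at 5 RPKM or more, and those beside 1 RPKM, and also, outside this rule and after their values were seen, to Defb1, Defb19, Defb23, Defb29, Defb37 and Defb41, and at most 4 genes per list by mean RPKM are named otherwise. Alternatives covered pseudocounts, filters, transcripts, centring, the deposited fold change, and the base of the fragment counts. Protein sequences were not analysed here.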

Additional observations from a re-analysis of the deposited data

Results flagged for a closer look

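The fragments of beta-defensins in caput and corpus at 13 months stood at different KO over WT ratios. On the log2 scale, per classified read, the ratio was -0.72 in caput, from 180 reads in KO and 224 in WT, and 0.061 in corpus, from 18 reads in KO and 60 in WT. The counting interval of the corpus ratio, 0.579 to 1.79, overlaps that of caput, 0.494 to 0.739, and the difference between the segments was not tested. Scaled to mRNA-class reads, the log2 ratio was 1.31 in caput and -0.18 in corpus.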

How the results depend on the processing

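No paired analysis was possible because each genotype has 1 pooled library and the labels carry no replicate numbers, and for the same reason no library could be left out in turn. Of the 33 tested members, 15 were higher in KO. A pseudocount of 0.1 RPKM gave 18 (4.65% of all tested genes higher), centring on all tested genes 13 (2.14%), and the deposited log2 fold change 21 (6.69%). The count was 15 with a pseudocount of 5 (1.27%), with sums over transcripts (2.89%), among 30 members with a filter of 5 RPKM (3.45%) and among 42 with no filter (1.88%). The median difference of 0.95 became 0.76 without a filter and 1.06 with the authors' deposited log2 fold change. Centring on the caput secretory list gave 0 higher members, a median of -0.12, a summed ratio of 1.11, -0.025 for Defb25 and -0.027 for Defb37; this follows from subtracting 1.07 from each difference. Without Defb20 the summed ratio was 2.25. Fragments in caput had a KO over WT ratio of 0.605 per classified read, 2.47 per mRNA-class read and 0.620 as distinct sequences; the cauda ratio of 0.925 was 0.588 per mRNA-class read. The total of mRNA-class reads differs between libraries, and the cause was not tested. With 1 library per genotype, depth limits members under about 10 RPKM, which rest on few reads.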
